A study of Rattus norvegicus with 30 samples.

Results

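The glutathione S-transferases (GSTs) described here are 10 genes: Gsta4 of the alpha class, Gstm1, Gstm2 and Gstm4 of the mu class, Gstt1 and Gstt2 of the theta class, Gsto1 (omega), Gstk1 (kappa), and the membrane enzymes Mgst1 and Mgst2. They were chosen by name, with earlier results of these data known, from probe sets that the array annotation assigns to that gene alone. They have 11 such probe sets, and each gene is represented by the one with the highest mean over the arrays. These are 10 of the 14217 genes with a probe set of their own, and all 10 passed the filter on low signals that left 10222 genes for testing. The measurements come from 30 arrays, 5 for each of 6 groups: cultures exposed to 100 uM methapyrilene, 3 uM methapyrilene or DMSO for 48 h, and the same 3 exposures for 24 h. Methapyrilene is an antihistamine that is toxic to rat liver, and the question is how each dose changes expression at each time. All groups share 1 cell source: hepatocytes of male Sprague Dawley rats, bought frozen, plated on collagen, overlaid with Matrigel and dosed on day 3 of culture. The vehicle is labelled as 1% DMSO, while the protocol gives that figure for the concentrated dosing solutions, so its share in the medium is uncertain. The replicates are separate wells, no animals are named and the number of donors is not given in the sources used here, so p-values measure only the spread between wells.

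GSTs join the tripeptide glutathione to electrophilic compounds, which makes them more soluble and readies them for export and for conversion to mercapturic acids. The cytosolic classes, which include alpha, mu, theta and omega, act as dimers. The kappa enzyme lies in mitochondria and peroxisomes, and the microsomal enzymes belong to a separate family of integral membrane proteins. Hepatocytes are among the cells richest in these enzymes, and several GST genes respond to the oxidative stress factor Nrf2 and to the nuclear receptors CAR and PXR.

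Values are MAS5 signals, which are linear probe set intensities. Their 2% trimmed mean lay between 1500.54 and 1500.66 on every array, and array medians lay between 361.7 and 471.4. A difference in signal between wells could reflect fewer cells of a type or less RNA per cell, and these cannot be told apart. Of 10 hepatocyte markers, 9 were on the array, and all 9 exceeded the array median on all 30 arrays. Markers of other cells passed the filter in part: 8 of 12 for Kupffer cells and leukocytes, 5 of 8 for stellate cells, 2 of 6 for cholangiocytes and 1 of 6 for sinusoidal endothelium. At 48 h the summed signal of the hepatocyte markers was 306674 to 351546 at 100 uM and 341892 to 404631 in DMSO, and that of the Kupffer cell and leukocyte markers was 13424 to 17558 at 100 uM and 19270 to 22053 in DMSO. At 24 h the hepatocyte sums were 334937 to 430251 at 100 uM and 354066 to 432685 in DMSO, and the Kupffer cell and leukocyte sums were 17002 to 18792 at 100 uM and 20299 to 24071 in DMSO. Of the 8 Kupffer cell and leukocyte markers, 2 were called higher and 2 lower at 48 h (median log2 fold change 0.24), and 1 higher and 2 lower at 24 h (median 0.00). Of the 9 hepatocyte markers, 4 were called lower at 48 h (median -0.15) and 5 at 24 h (median -0.35), and 0 higher at either time. The summed signal of the 2 cholangiocyte markers was 10803 to 11699 at 100 uM and 12156 to 13378 in DMSO at 48 h, and 10795 to 11766 at 100 uM and 9665 to 10794 in DMSO at 24 h. Of these 2 markers, 2 were called lower and 0 higher at 48 h (log2 fold changes -1.49 and -0.15). At 24 h they went opposite ways (-1.09 and 0.15), with 1 called higher and 0 lower. The part of these shifts in the results was not tested. Replicates 1 to 3 of the 3 uM group at 24 h stood apart from the other 27 arrays, with a 3' to 5' signal ratio of the beta-actin control probe sets of 3.93 to 5.30, against 2.34 to 3.43 elsewhere. Comparisons that use that group are therefore also given without these arrays.

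At 100 uM the GST genes moved in both directions. After 48 h, 5 of the 10 fell (Gsta4, Gstm4, Gstm2, Gstt1 and Gstt2) and 2 rose (Gsto1 and Gstk1). Gstm1, Mgst1 and Mgst2 did not pass the test. After 24 h the same 5 genes fell and Gsto1 rose. Calls are limma's, at a Benjamini-Hochberg adjusted p under 0.05 over all 10222 genes. Over all of those genes, 14.5% were called lower and 18.9% higher at 48 h, and 15.8% lower and 19.8% higher at 24 h. The median log2 fold change of the 10 genes was -0.23 at 48 h and -0.17 at 24 h, beside 0.05 and 0.04 over all genes tested. In each called gene all 5 arrays at 100 uM lay on one side of all 5 DMSO arrays, which makes 5 genes lower and 2 higher at 48 h, where 12.1% and 15.8% of all genes separated in this way. At 24 h it makes 5 lower and 1 higher, where 11.9% and 14.5% of all genes did.

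**Figure D1:**
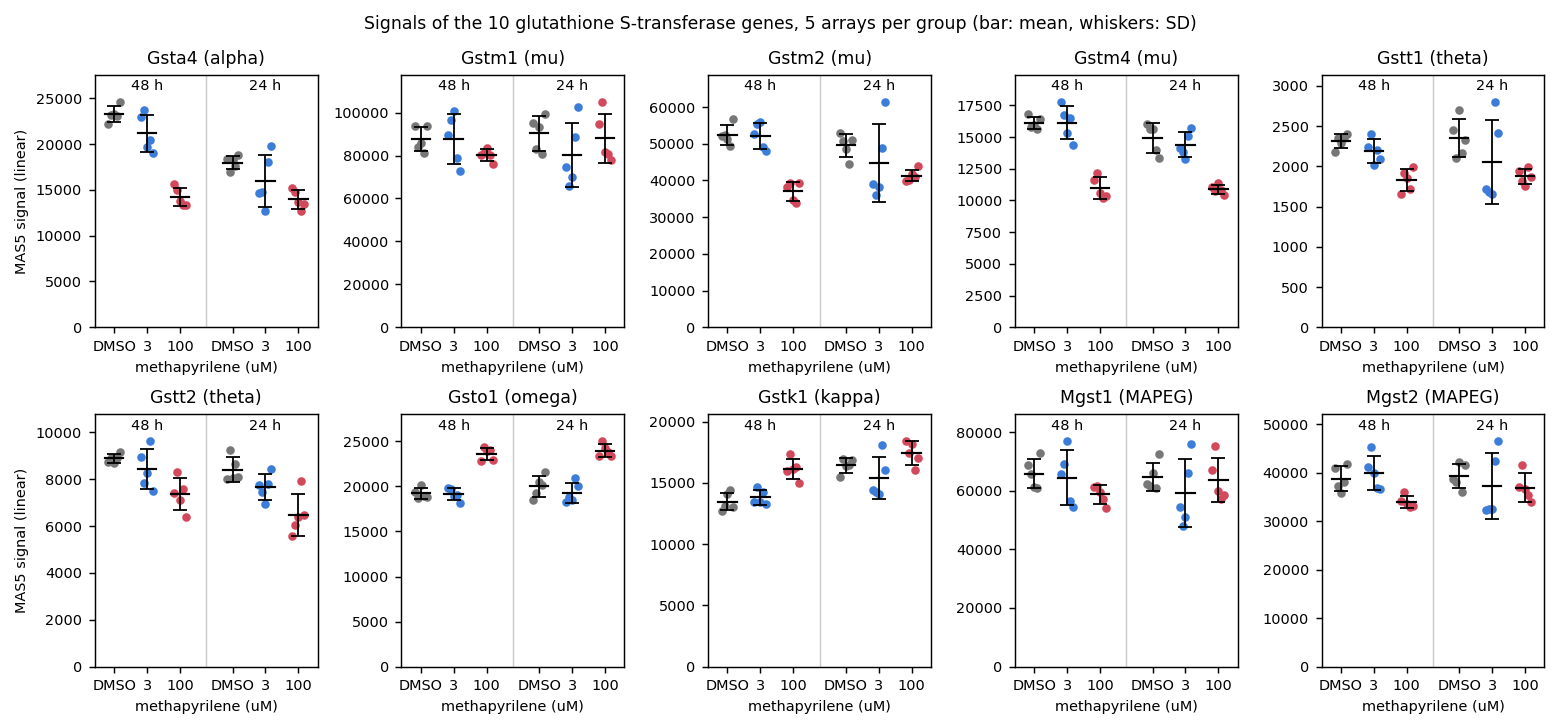
MAS5 signal (linear, from 0) of each of the 10 genes on every array, with 48 h left of 24 h and DMSO, 3 uM and 100 uM in order of dose. Each point is 1 of 5 arrays, the bar is the mean and the whiskers are the SD. For Gsta4 the 5 arrays at 100 uM and 48 h, 13327 to 15607, lie under the DMSO arrays at 22187 to 24651, while for Gsto1 they lie above theirs.

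Gsta4 (probe set 1372297_at, chr8:87947247-87964490), the alpha class enzyme that detoxifies 4-hydroxynonenal from lipid peroxidation, had the lowest fold change of the 10 at 48 h. After 48 h its signal was 15607, 15011, 13835, 13380 and 13327 at 100 uM, against 22187, 23164, 23313, 23052 and 24651 in DMSO. The groups were far from overlapping: the brightest treated array was well under the dimmest DMSO array. The log2 fold change was -0.71 ± 0.081 (SE, n = 5 per group; limma adjusted p = 1.39e-08), so the signal fell by 38.9%. After 24 h the signal was 15219, 14783, 13674, 12742 and 13450 at 100 uM, against 18349, 16942, 18236, 17567 and 18810 in DMSO. The groups again did not overlap, and the log2 fold change was -0.37 ± 0.081 (limma adjusted p = 0.000532). The treated arrays were at like levels at both times, and it was the DMSO level that stood higher at 48 h. The sequence around the start of Gsta4 is shown because it holds more matches to the motifs searched than the other promoters found. It runs from 250 bases before to 50 bases after the start (RefSeq, rat GRCr8, chr8:87947015-87947314), and capitals mark GCGTG or its reverse complement, the core to which the aryl hydrocarbon receptor complex binds.
Gsta4: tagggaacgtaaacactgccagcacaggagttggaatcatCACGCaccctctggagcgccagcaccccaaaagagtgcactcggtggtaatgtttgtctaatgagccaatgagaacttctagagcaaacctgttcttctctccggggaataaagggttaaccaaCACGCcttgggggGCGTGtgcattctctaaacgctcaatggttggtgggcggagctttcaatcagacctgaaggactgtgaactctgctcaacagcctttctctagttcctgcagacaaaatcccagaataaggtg
It has 3 matches, with first bases at -210, -86 and -73 from the start, and 29.7% of the 33469 promoters in the same table hold at least 1. A match is only a run of letters and does not show binding.

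Gstm1, Gstm2 and Gstm4 encode mu class enzymes, which conjugate epoxides and aromatic halides and are abundant in rat liver. In the RefSeq gene table for GRCr8, from which all gene positions here are taken, they stand side by side on the minus strand of chromosome 2, Gstm2 at chr2:198312179-198316962, Gstm1 at chr2:198338005-198346007 and Gstm4 at chr2:198356114-198373487. Between them lie 21042 and 10106 bases with 0 other listed genes. Gstm4 and Gstm2 fell at 100 uM while Gstm1, which lies between them, did not pass the test at either time.

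Gstm4 (1375909_at) had signals of 11573, 12154, 10601, 10190 and 10388 at 100 uM and 48 h, against 16808, 15798, 15936, 15606 and 16462 in DMSO. After 24 h they were 11071, 10764, 11374, 10839 and 10430 at 100 uM, against 16051, 15618, 15604, 13982 and 13336 in DMSO. All treated arrays were below all DMSO arrays at both times. Gstm4 changed on the log2 scale by -0.56 ± 0.062 at 48 h (limma adjusted p = 6.87e-09) and -0.45 ± 0.062 at 24 h (limma adjusted p = 4.15e-07). Gstm2 (1370952_at) had signals of 38147, 39208, 34708, 33950 and 39222 at 100 uM and 48 h, against 52133, 52388, 51166, 49389 and 56766 in DMSO. After 24 h they were 39956, 40131, 41704, 40957 and 43871 at 100 uM, against 52925, 50773, 48660, 44499 and 50886 in DMSO. The groups did not overlap at either time, though at 24 h the dimmest DMSO array, replicate 4, came close to the brightest treated one. Gstm2 changed on the log2 scale by -0.50 ± 0.090 at 48 h (limma adjusted p = 3.52e-05) and -0.26 ± 0.090 at 24 h (limma adjusted p = 0.0219). Without DMSO replicate 1 the 24 h call is lost, at an adjusted p of 0.0584.

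Gstm1 (1386985_at) had signals of 80289, 81082, 83700, 80049 and 75984 at 100 uM and 48 h, against 93541, 83811, 85697, 81260 and 93760 in DMSO. The groups overlapped, by the treated array at 83700 and the DMSO array at 81260. The log2 fold change was -0.13 (95% interval -0.33 to 0.08, limma adjusted p = 0.355), and at 24 h it was -0.04 (95% interval -0.24 to 0.16, limma adjusted p = 0.797). Its probe set is the 4th brightest of 31042 by mean signal, and whether such a signal can still follow a change in RNA was not tested. The difference between the mu genes was not tested either. The mu genes are close in sequence, and which transcripts each probe set can bind was not checked, because probe sequences were not used here. Gstm4 also overlaps another listed gene of GRCr8.

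The promoters of the 3 neighbours are shown to set the genes that fell beside the one that did not pass the test (RefSeq, GRCr8, minus strand, 5' to 3', Gstm4 at chr2:198373334-198373633, Gstm2 at chr2:198316868-198317167, Gstm1 at chr2:198343334-198343633). Each window spans 250 bases before to 50 after the start that RefSeq's table uses, and capitals mark GCGTG or its reverse complement.
Gstm4: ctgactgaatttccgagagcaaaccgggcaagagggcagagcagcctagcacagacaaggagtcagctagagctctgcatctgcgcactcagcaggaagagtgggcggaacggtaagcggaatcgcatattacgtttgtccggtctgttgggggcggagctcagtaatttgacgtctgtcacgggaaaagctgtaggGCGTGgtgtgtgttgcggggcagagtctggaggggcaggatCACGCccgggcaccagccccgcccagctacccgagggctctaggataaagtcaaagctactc
Gstm2: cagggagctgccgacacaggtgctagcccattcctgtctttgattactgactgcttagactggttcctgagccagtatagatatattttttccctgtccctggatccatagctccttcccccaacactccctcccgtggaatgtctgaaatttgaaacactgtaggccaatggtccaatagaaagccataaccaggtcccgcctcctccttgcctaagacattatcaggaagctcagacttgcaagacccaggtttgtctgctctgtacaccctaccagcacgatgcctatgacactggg
Gstm1: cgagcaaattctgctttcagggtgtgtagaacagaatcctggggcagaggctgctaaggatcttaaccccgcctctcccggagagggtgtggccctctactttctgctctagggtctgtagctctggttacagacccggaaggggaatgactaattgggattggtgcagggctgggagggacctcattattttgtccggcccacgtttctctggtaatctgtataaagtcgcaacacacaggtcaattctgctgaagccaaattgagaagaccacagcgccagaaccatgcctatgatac
Gstm4 holds 2 matches to GCGTG, starting at -53 and -12, and the windows of Gstm2 and Gstm1 hold 0. No window of the 7 genes with a promoter in the table, which also include Gsta4, Gsto1, Gstk1 and Mgst1, holds TGACNNNGC, the core of the antioxidant response element bound by Nrf2. Over all 33469 promoters, 12.06% hold it on either strand. Absence from these 300 bases says nothing about the factor or about more distant sites. Matches to GCGTG were found in 2 of the 7, Gsta4 and Gstm4.

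Gstt1 and Gstt2 are theta class enzymes, which act on small halogenated compounds and on hydroperoxides or sulfate esters. Gstt1 (1368354_at, chr20:12856068-12873020) had signals of 1659, 1914, 1853, 1721 and 1995 at 100 uM and 48 h, against 2175, 2358, 2289, 2350 and 2402 in DMSO. After 24 h they were 1937, 1822, 1757, 1988 and 1872 at 100 uM, against 2450, 2106, 2702, 2164 and 2326 in DMSO. The groups were separate at both times by a gap smaller than the range within a group. Gstt1 changed on the log2 scale by -0.34 ± 0.10 at 48 h (limma adjusted p = 0.010) and -0.32 ± 0.10 at 24 h (limma adjusted p = 0.0151). Without DMSO replicate 3 the 24 h adjusted p is 0.0552.

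Gstt2 (1368409_at, chr20:12819053-12822724) had signals of 7428, 8307, 7098, 7590 and 6396 at 100 uM and 48 h, against 8726, 8908, 8686, 8924 and 9182 in DMSO. After 24 h they were 5558, 6031, 6392, 7936 and 6486 at 100 uM, against 8002, 9244, 8064, 8649 and 8087 in DMSO. At 24 h the treated array at 7936 lay just under the dimmest DMSO array, and the other 4 lay well below. The log2 fold change was -0.28 ± 0.077 at 48 h (limma adjusted p = 0.00536) and -0.38 ± 0.077 at 24 h (limma adjusted p = 0.000166). Gstt2 has a second, dimmer probe set (1396468_at), which was above the array median on 27 of 30 arrays. It gave 0.03 ± 0.28 at 48 h and -0.65 ± 0.28 at 24 h (limma adjusted p = 0.971 and 0.129 over all probe sets). When the probe sets of a gene are averaged, the 48 h change of Gstt2 is -0.12 and the call is lost (adjusted p = 0.577).

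**Figure D2:**
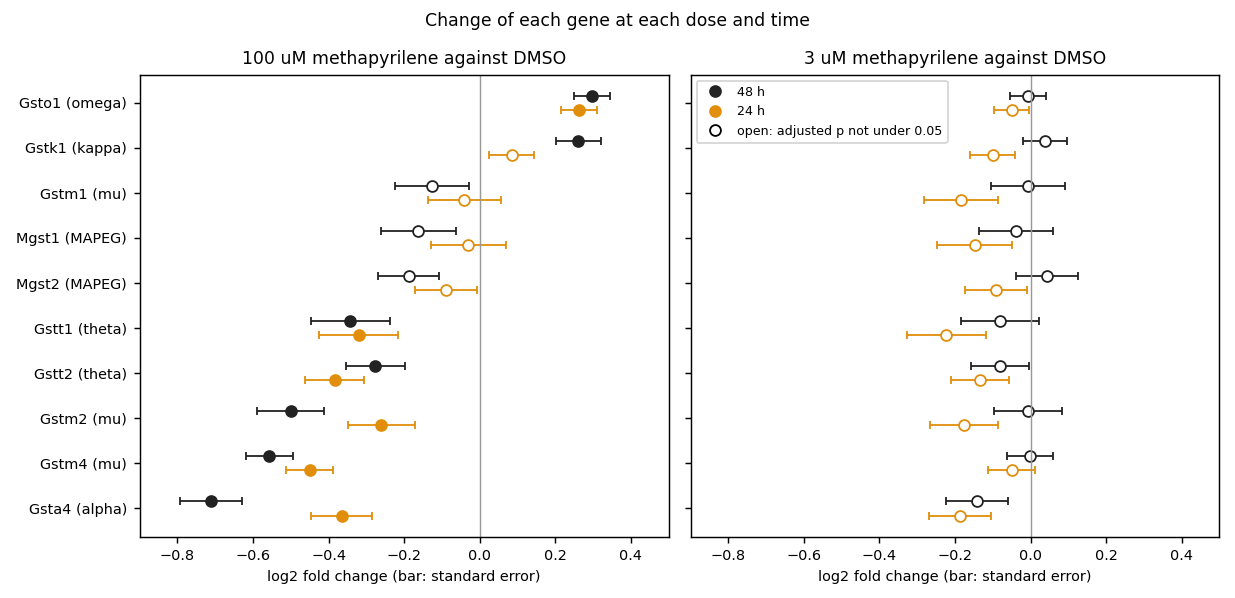
Log2 fold change against DMSO for each of the 10 genes (rows) at 100 uM (left panel) and 3 uM (right panel), with 48 h above 24 h in each row. Bars are standard errors and open points did not pass the test. At 100 uM Gsto1 and Gstk1 lie right of 0 and Gsta4 lies farthest left at 48 h, while at 3 uM all points are open.

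At 100 uM Gsto1 rose at both times and Gstk1 at 48 h. Gsto1 (1389832_at, chr1:256662377-256672515) encodes the omega class enzyme, which carries a cysteine in its active site, reduces dehydroascorbate and removes glutathione from proteins. Its signals were 22856, 24356, 23996, 24013 and 22961 at 100 uM and 48 h, against 19435, 18724, 20207, 18947 and 18886 in DMSO. After 24 h they were 23384, 25061, 24238, 23818 and 23426 at 100 uM, against 18473, 19273, 20497, 20162 and 21607 in DMSO. The 10 treated arrays were all brighter than the 10 DMSO arrays, whatever the time. Gsto1 changed on the log2 scale by 0.30 ± 0.047 at 48 h (limma adjusted p = 5.72e-06) and 0.26 ± 0.047 at 24 h (limma adjusted p = 3.23e-05). The promoter of Gsto1 (RefSeq, GRCr8, plus strand, chr1:256662281-256662580) is shown beside those of the genes that fell. Capitals mark a match to TGANTCA, a loose form of the AP-1 motif that allows any middle base.
Gsto1: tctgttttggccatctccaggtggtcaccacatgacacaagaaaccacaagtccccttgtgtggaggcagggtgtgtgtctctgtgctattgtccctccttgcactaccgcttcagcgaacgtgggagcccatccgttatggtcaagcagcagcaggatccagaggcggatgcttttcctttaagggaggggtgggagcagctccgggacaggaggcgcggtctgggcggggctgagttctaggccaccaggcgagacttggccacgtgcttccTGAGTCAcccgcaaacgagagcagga
The match starts at base 24 after the start. TGANTCA occurs on either strand in 7.329% of the 33469 promoters, and in 2 of the 7 windows here, Gsto1 (TGAGTCA) and Mgst1 (TGATTCA).

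Gstk1 (1398378_at, chr4:72085532-72089934), which encodes the kappa class enzyme, had signals of 15971, 17326, 16158, 16275 and 14955 at 100 uM and 48 h, against 12724, 13102, 14075, 14388 and 13064 in DMSO. The groups did not overlap, and the log2 fold change was 0.26 ± 0.059 (limma adjusted p = 0.000716). With each array centred on its median the call is lost, at 0.21 and an adjusted p of 0.0561. After 24 h the signals were 18422, 17446, 18158, 16025 and 17065 at 100 uM, against 15462, 16943, 16379, 16464 and 16830 in DMSO. There 1 treated array, replicate 4, lay within the DMSO range, and the log2 fold change of 0.08 (95% interval -0.04 to 0.21) did not pass the test (limma adjusted p = 0.289). The mean signal of Gstk1 was 16137 at 48 h and 17423 at 24 h at 100 uM, and 13471 and 16416 in DMSO. The treated mean was thus not higher at 48 h than at 24 h, and the DMSO mean stood lower at 48 h.

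The membrane enzymes Mgst1, which conjugates electrophiles and reduces lipid peroxides in the endoplasmic reticulum and the outer mitochondrial membrane, and Mgst2, which also makes leukotriene C4, did not pass the test at 100 uM. Mgst1 (1367612_at, chr4:172760930-172776157) had signals of 61400, 61590, 59581, 57270 and 53958 at 100 uM and 48 h, against 68697, 65724, 61272, 60780 and 72736 in DMSO. The brightest 2 treated arrays overlapped the dimmest 2 DMSO arrays. The log2 fold change was -0.16 (95% interval -0.37 to 0.04, limma adjusted p = 0.224). Mgst2 (1372599_at, chr2:137821787-137866664) had signals of 34136, 36109, 33494, 32968 and 33205 at 100 uM and 48 h, against 41028, 37189, 35762, 38088 and 41762 in DMSO. Here 1 treated array, replicate 2, exceeded the dimmest DMSO array. The log2 fold change was -0.19 (95% interval -0.36 to -0.02, limma adjusted p = 0.0755). At 24 h the values were -0.03 for Mgst1 and -0.09 for Mgst2, with groups that overlapped (limma adjusted p = 0.855 and 0.437). A fit to the compared groups alone, which takes its spread from those 10 arrays, called Mgst1, Mgst2 and Gstm1 lower at 48 h (limma adjusted p = 0.0187, 0.00321 and 0.0285). In all, that fit called 10 of the 10 genes and 3860 of 10222 genes there, against 7 and 3415.

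At 3 uM 0 of the 10 genes were called at either time in limma, where 0.0391% of all genes were called at 48 h and 4.22% at 24 h. At 48 h 0 of the 10 had an unadjusted p under 0.05, beside 5.11% of all genes. The log2 fold changes of the 10 there ran between -0.14 for Gsta4 and 0.04 for Mgst2, with a median of -0.01. At 24 h 2 of the 10 had an unadjusted p under 0.05 (Gsta4 and Gstt1), beside 22.1% of all genes. All 10 were below 0 at 24 h, between -0.22 for Gstt1 and -0.05 for Gstm4 and Gsto1, beside 47.1% of all genes. This was not shared by the 5 arrays. On replicates 1, 2 and 3 each of the 10 genes was below its DMSO mean, by a median over the genes of -0.26, -0.28 and -0.31 on the log2 scale, whereas on replicates 4 and 5 only 3 and 1 genes were below and the medians were 0.03 and 0.11. Over all genes tested, 43.7% to 45.5% were below their DMSO mean on replicates 1 to 3.

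Gstt1 is an example of this split, with signals of 1720, 1679, 1656, 2804 and 2416 at 3 uM and 24 h, against 2450, 2106, 2702, 2164 and 2326 in DMSO. Replicates 1 to 3 lay under every DMSO array, and replicate 4 lay above every one. With replicates 4 and 5 alone, 0 of the 10 were called, the log2 fold changes ran between -0.05 and 0.18, and 4 of 10222 genes were called. With the beta-actin ratio as a covariate 0 of the 10 genes and 1 gene in all were called. A fit with array weights, which gives less weight to arrays far from the others of their group, called 7 of the 10 lower and 2889 genes in all. The part of the ratio in the low values was not tested beyond this.

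**Figure D3:**
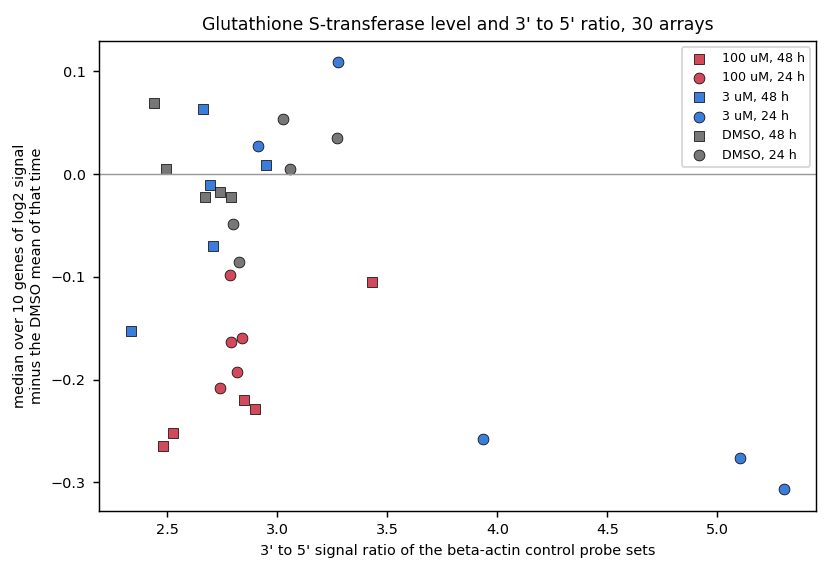
Each point is 1 of 30 arrays. The x axis is the 3' to 5' signal ratio of the beta-actin control probe sets, the y axis the median over the 10 genes of log2 signal minus the DMSO mean of the same time, colour is the dose, and squares are 48 h and circles 24 h. The 3 arrays at ratios of 3.93 to 5.30 are replicates 1 to 3 of 3 uM at 24 h, with medians of -0.26 to -0.31.

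The doses were also set against each other. At 48 h, 4 genes were lower at 100 uM than at 3 uM and 2 were higher, where 12.6% of all genes were called lower and 16.2% higher. The genes that fell were Gsta4 (-0.57 ± 0.081, limma adjusted p = 1.29e-06), Gstm4 (-0.55 ± 0.062, limma adjusted p = 1.00e-08), Gstm2 (-0.49 ± 0.090, limma adjusted p = 5.51e-05) and Mgst2 (-0.23 ± 0.082, limma adjusted p = 0.0303). The call of Mgst2 held in 15 of the 21 alternatives that left the thresholds for a call unchanged. Gsto1 (0.30 ± 0.047, limma adjusted p = 4.99e-06) and Gstk1 (0.22 ± 0.059, limma adjusted p = 0.00419) rose. With arrays centred on their medians Gstk1 and Mgst2 are not called (adjusted p = 0.0773 and 0.0845). Gstt1 and Gstt2 were close to the threshold (limma adjusted p = 0.0574 and 0.0572), and all treated arrays of Gstt1 were below those at 3 uM. At 24 h, 2 genes were lower and 2 higher, where 19.1% and 19.8% of all genes were. Gstm4 (-0.40 ± 0.062, limma adjusted p = 2.89e-06) and Gstt2 (-0.25 ± 0.077, limma adjusted p = 0.00990) fell, and Gsto1 (0.31 ± 0.047, limma adjusted p = 1.97e-06) and Gstk1 (0.18 ± 0.059, limma adjusted p = 0.0126) rose. With replicates 4 and 5 of the 3 uM group alone, Gstk1 was at 0.03 ± 0.065 and was not called (limma adjusted p = 0.780). With the thresholds unchanged, the call of Gstk1 was also lost with 3 other settings, to limma adjusted p-values of 0.0888 to 0.399. Gstm4 (-0.50), Gstt2 (-0.33) and Gsto1 (0.23) kept their calls with these replicates. Gsta4 (-0.44), Gstm2 (-0.41), Gstt1 (-0.47) and Mgst2 (-0.27) were called lower, which makes 7 of the 10. With these replicates 2755 of 10222 genes were called. The call of Gstt2 was lost when probe sets were averaged (adjusted p = 0.277) and with the beta-actin covariate (adjusted p = 0.0654).

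Time in culture changed 2 of the genes in DMSO. Gsta4 rose at 48 h against 24 h, by 0.37 ± 0.081 (limma adjusted p = 0.00362), and Gstk1 fell (-0.29 ± 0.059, limma adjusted p = 0.00207), with no overlap between the times in either. Over all genes 2.57% were called higher and 1.91% lower. With arrays centred on their medians the call of Gsta4 is lost (adjusted p = 0.0528). For these genes the 100 uM effect at 48 h minus that at 24 h was -0.35 ± 0.12 for Gsta4 and 0.18 ± 0.084 for Gstk1. Neither passed the test of this difference (limma adjusted p = 0.166 and 0.420). None of the 10 did in limma, where 1.65% of all genes were called. Of the 10, 2 had an unadjusted p under 0.05, beside 11.3% of all genes. Gsta4 passed the test of this difference with array weights (adjusted p = 0.0350) and with only the compared groups fitted (adjusted p = 0.00876). For the change of the 3 uM effect 0 of the 10 passed in limma, and 0% of all genes were called. There 0 of the 10 had an unadjusted p under 0.05, beside 12.3% of all genes. The log2 differences of the 10 were all above 0 with all arrays, at 0.04 to 0.18. With replicates 4 and 5 alone they were all below 0, at -0.23 to -0.02, and 0 of the 10 passed as well.

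Within groups many but not all of the genes also varied together from well to well, most of all Gstm1 and Mgst1. After the group means were removed, their log2 signals correlated at Pearson r = 0.953 over the 30 arrays and at 0.920 over the 25 arrays outside the 3 uM group at 24 h. The median over the 45 pairs of genes was 0.525 on all arrays and 0.236 without that group. The lowest was that of Gstm1 and Gstt2, at -0.031 on all arrays and -0.29 without that group. The arrays share the scaling and the cell source. After quantile normalization, chosen after seeing these data, the correlation of Gstm1 and Mgst1 was 0.016 on all arrays and -0.028 without that group, and the medians of the pairs were 0.118 and 0.0069. Quantile normalization gives the brightest probe sets values that are nearly fixed by their rank, and Gstm1 and Mgst1 rank 4 and 57 of 31042, so this drop does not show where the correlation comes from. The part of the scaling in the median over all pairs was not tested. Correlations were not computed for pairs of other genes, so the values describe these arrays and are not shown to be particular to GST genes.

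Of 21 other genes of the GST family listed here, 14 were tested. At 100 uM and 48 h 5 of them fell and 1 rose, and at 24 h 5 fell and 0 rose. The list's median log2 fold change was -0.15 at 48 h and -0.11 at 24 h. At 48 h Gstt3, Gstm7 and Gstz1 had lower fold changes than any of the 10, though the differences between genes were not tested. Gstt3, a theta class gene, averaged 1332 ± 171 at 100 uM and 48 h and 4759 ± 373 in DMSO (SD, n = 5 each), a log2 fold change of -1.84 ± 0.094 (limma adjusted p = 7.04e-17). At 24 h it averaged 1767 ± 185 at 100 uM and 3821 ± 243 in DMSO, a change of -1.12 ± 0.094. Gstm7, of the mu class, averaged 708 ± 74.0 at 100 uM and 48 h and 2183 ± 361 in DMSO (-1.62 ± 0.12, limma adjusted p = 7.00e-13). Gsta3, an alpha class enzyme with steroid isomerase activity in mammals, changed by -0.61 ± 0.053 at 48 h (limma adjusted p = 2.74e-11). The others called at 48 h, named after their values were seen, were Gstz1 of tyrosine breakdown (-0.99), Mgst3 (-0.58) and Gstm5 (0.23). With arrays centred on their medians Gstm5 is not called (adjusted p = 0.159). In DMSO at 48 h against 24 h, 3 of the 14 were called higher and 1 lower, beside 2.57% and 1.91% of all genes. Gstp3 changed by -2.23 ± 0.38 (limma adjusted p = 0.000189) and Gstm7 by 0.58 ± 0.12 (limma adjusted p = 0.00209). The DMSO mean of Gstp3 at 48 h, 129 ± 49.9 (SD), lay under every array median.

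Neighbouring genes did not all move one way. Along the mu cluster Gstm5 rose at 48 h, Gstm7 fell furthest, Gstm3 did not pass the test (-0.15 at 48 h), and Gstm2, Gstm1 and Gstm4 followed with the values above. On chromosome 20 Gstt2, Gstt1 and Gstt3 all fell at both times. Gstt1 and Gstt3 lie 597 bases apart, and their changes at 48 h were -0.34 and -1.84. No test of the difference between neighbours was made.

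**Figure D4:**
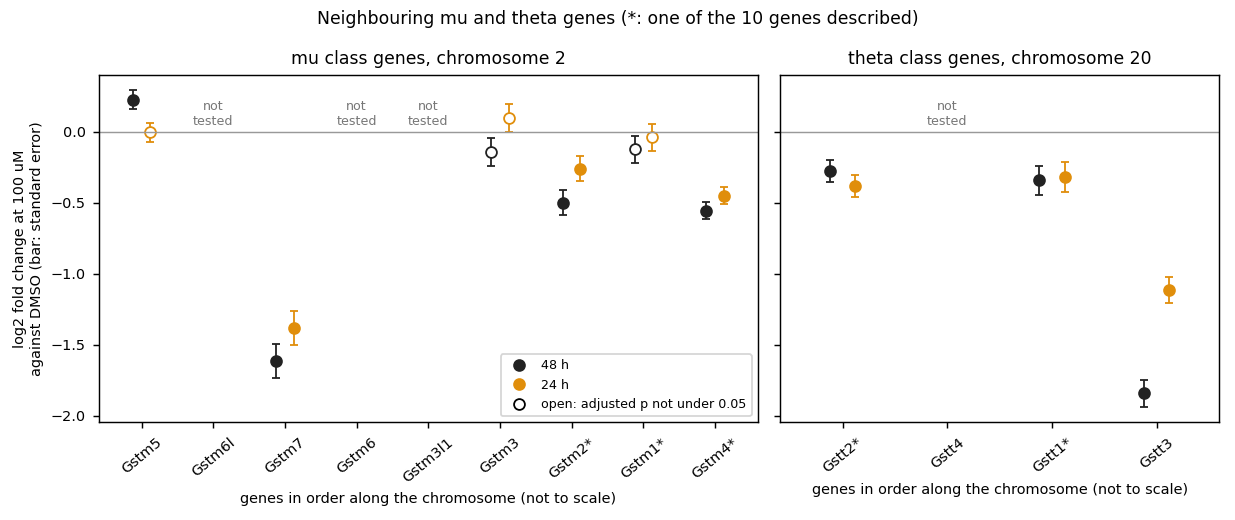
Log2 fold change at 100 uM against DMSO for neighbouring mu genes (left panel) and theta genes (right panel), in their order along the chromosome and not to scale, with 48 h left of 24 h. Asterisks mark the genes among the 10, bars are standard errors, and open points did not pass the test. Gstm7 and Gstt3 lie at -1.62 and -1.84 at 48 h, below Gstm2, Gstm4, Gstt1 and Gstt2.

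The genes that supply and use glutathione changed in both directions at 100 uM. Of 19 tested genes of glutathione synthesis and recycling, 9 fell and 3 rose at 48 h, and 6 fell and 6 rose at 24 h. The list's median log2 fold change was -0.25 at 48 h and 0.03 at 24 h. The counts of this list, of the other GST genes and of the lists below stand beside 14.5% of all genes called lower and 18.9% higher at 48 h, and 15.8% lower and 19.8% higher at 24 h. Cth, the enzyme that makes cysteine from cystathionine, changed by -1.13 ± 0.076 at 48 h and -0.90 ± 0.076 at 24 h. Oplah, which recycles 5-oxoproline to glutamate, changed by -1.20 ± 0.15 and -1.32 ± 0.15. Chac1, which breaks down glutathione, fell by 0.55 on the log2 scale at 48 h, and Pgd, an NADPH source of the pentose phosphate pathway, rose by 0.47 at 24 h. Of the subunits of the rate-limiting ligase, named after their values were seen, Gclm rose at 48 h (0.23) and at 24 h (0.23), and Gclc at 24 h (0.35). With arrays centred on their medians Gclm at 48 h is not called (adjusted p = 0.0675). Among 6 glutathione peroxidases (median 0.06 at 48 h and 0.09 at 24 h) 2 rose at both times and 0 fell: Gpx2 by 0.64 ± 0.082 at 48 h and 0.65 ± 0.082 at 24 h, and Gpx8 by 0.62 ± 0.14 and 0.43 ± 0.14. With only the compared groups fitted, Gpx8 at 24 h is not called (adjusted p = 0.0729).

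Of 16 tested genes of the mercapturate pathway and of conjugate transport, 8 fell and 2 rose at 48 h, and 6 fell and 2 rose at 24 h, with medians of -0.26 and -0.16. Kyat3, a cysteine conjugate lyase, changed by -1.03 ± 0.096 at 48 h and -1.24 ± 0.096 at 24 h, and Slco1b2, a hepatocyte uptake carrier for organic anions, by -1.28 ± 0.14 and -1.27 ± 0.14. Acy3, which deacetylates mercapturic acids, fell by 1.19 at 24 h. Abcc2, the canalicular pump for glutathione conjugates, rose by 0.57 ± 0.063 at 48 h. Of 14 regulators 5 fell and 4 rose at each time, with medians of -0.05 at 48 h and -0.11 at 24 h. Nr1i3, which encodes CAR, averaged 517 ± 108 at 100 uM and 48 h and 1988 ± 227 in DMSO (SD, n = 5 each; -1.96 ± 0.16, limma adjusted p = 1.29e-11), and at 24 h it changed by -2.37 ± 0.16. Nr1i2, which encodes PXR, fell by 0.69 at 24 h, and Maff, a small Maf partner of Nrf2, rose by 0.73. At 48 h Jun fell by 0.45 and Cebpa, a factor of the mature hepatocyte, by 0.58. Nfe2l2, which encodes Nrf2 and was named after its values were seen, rose by 0.29 ± 0.062 at 48 h and by 0.26 ± 0.062 at 24 h. With arrays centred on their medians its 24 h call is lost (adjusted p = 0.0563).

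Over all genes 0.0391% were called at 3 uM and 48 h, and 4.22% at 24 h. Of these 5 lists, with 14, 19, 6, 16 and 14 tested genes, 0 genes were called at 48 h. At 24 h 5 were: Gclc (0.35), Slc7a11, the cystine carrier (0.35), and Abcc2 (0.24) rose, while Gsr, glutathione reductase (-0.36, named after its values were seen), and Nat8, which acetylates cysteine conjugates (-0.41), fell. With replicates 4 and 5 of that group alone, none of the 5 was called, and Gsr was at 0.082.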

How the data were processed

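RNA from 30 cultures was hybridised to a rat whole-genome array. The deposited values are intensity on a linear scale, made by the authors with MAS5 per the submitters' processing notes. No MAS5 version or detection call is given in the sources used here. Probe sets took their gene from the platform annotation: 20826 had 1 symbol, 436 several, 9780 none and 57 were controls. Of these symbols 20758 matched the RefSeq gene table for GRCr8, and 0 changed.

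Tests ran on log2 signals with no pseudocount. The filter asked for a signal above the array's median on at least 5 arrays, which 17555 of 31099 probe sets met, and each gene took its brightest probe set, which gave 10222 genes. limma 3.58.1 (R 4.3.3) fitted a mean per group to all 30 arrays, with 24 residual degrees of freedom and eBayes with a trend. Tests were two-sided, with Benjamini-Hochberg adjustment within each of 9 comparisons. The fit was tested on simulated data. Alternatives changed the scaling, filter, pseudocount (16), probe sets per gene, arrays fitted, array weights, run block, beta-actin covariate and thresholds, and left out each array in turn. The number of arrays limits the precision. No pair of arrays held identical values, and no label pairs wells across groups.

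The 10 genes, the gene lists and the rules were chosen with earlier results of these data known. The rule names all 10 genes and, of each other list, up to 3 called genes by adjusted p at 100 uM against DMSO and up to 2 in other comparisons. Genes named outside the rule are marked as named after their values were seen. Most genes that the rule picks for 100 uM against 3 uM and for DMSO time are not described. Their alternatives are counted below all the same. Promoters are from RefSeq, GRCr8, and the build the array was designed on is not given in the sources used here. Python 3.11.15 with matplotlib 3.10.9 drew the figures.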

Additional observations from a re-analysis of the deposited data

Results flagged for a closer look

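Gstt3, Slc7a11 and Pgd differed between the times in their response to 100 uM by the test of the difference itself, while none of the 10 GST genes did. The 100 uM effect at 48 h minus that at 24 h was -0.73 ± 0.13 on the log2 scale for Gstt3 (limma adjusted p = 0.00144). It was -0.62 ± 0.14 for Slc7a11 (limma adjusted p = 0.0164), whose log2 fold change was -0.36 at 48 h and 0.26 at 24 h. For Pgd it was -0.39 ± 0.10 (limma adjusted p = 0.0409), and that call held in 14 of the 31 alternatives that left the thresholds unchanged. In 60 groups of 5 arrays of the 10 genes, 0 had a lone array that stood apart by Dixon's test. The test looks for a lone array, so it cannot decide whether several arrays of a group stand apart together. The split between replicates of the lower dose at 24 h, described above, is of that kind.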

How the results depend on the processing

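Over alternatives, the 10 genes gave 579 values where the main result was a call, of which 532 kept it and 47 lost it. They gave 1721 values where it was not, of which 1672 stayed without a call, 47 gained one and 2 were called with the sign opposite to the main value, and 91 of the 1721 had the other sign. Of 1719 values of the other named genes with a call, 1585 kept it, 133 lost it and 1 changed sign, Gsr at 3 uM and 24 h, at 0.082 with replicates 4 and 5 alone. The 2 reversals among the 10 were Mgst2 at 100 uM against 3 uM and 24 h, at -0.11 with quantile normalization and -0.27 with replicates 4 and 5 of the 3 uM group alone, where the main value was 0.00 and not called. Both settings also called 7 of the 10 genes in that comparison, against 4. Over all 10222 genes they called 4063 and 2755 there, against 3970. With array weights 7 of the 10 were called at 3 uM and 24 h, against 0. For the change of the 3 uM effect they called 3, and for that of the 100 uM effect 1, against 0 in each. Over all genes array weights called 2889, 1616 and 261 in these comparisons, against 431, 0 and 169. For the change of the 100 uM effect, the fit to the compared groups alone called 1 of the 10 and 247 of all genes. Leaving out 1 array called 0 to 3 genes at 3 uM and 24 h, with 2 without replicate 4 and 3 without replicate 5 of the 3 uM group. Median centring left 1 of 2 genes for DMSO time, Gstk1. A 1.5-fold minimum left 1 of 7 at 100 uM and 48 h, Gsta4, 0 of 6 at 24 h, 0 of 6 and 0 of 4 against 3 uM at 48 h and 24 h, and 0 of 2 for DMSO time. Otherwise the cause of these shifts was not tested. No label says that wells are paired, but array numbers fall in runs of 6 with 1 array of each group. With these runs as a block 7 of the 10 genes were called at 100 uM against 3 uM and 48 h, in place of 6, and the other counts of the 10 were as before. Over all genes the block called 2920 in that comparison, against 2945. Mean array medians differed by at most 0.07 on the log2 scale between the groups that were compared. Detection calls were not used here, so signal over background is unknown.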
